A study of Mus musculus with 6 samples.

Results

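Glucose catabolism was described through 38 genes of glucose uptake, glycolysis, lactate handling, pyruvate dehydrogenase kinases and the pentose phosphate pathway, all of which matched a row of the deposited table of 17001 rows by gene symbol. The rule that set the list used the genes' roles, but the list was drawn up with earlier results of these data known. RNA was sequenced from 6 libraries of primary preosteoblasts, the precursors of bone-forming osteoblasts, which had been isolated enzymatically from skull bones of 3-day-old mice and grown in serum-containing medium. Control libraries (n = 3) carried the genotype NELL2 fx/fx, with both copies of the gene floxed and no Cre. The cKO libraries (n = 3) were labelled Col1-cre; NELL2 fx/fx, in which Cre driven by a Col1a1 promoter fragment deletes the floxed part of *Nell2* in the osteoblast lineage. No Cre-only control was analysed here, and the labels do not say whether libraries of a group came from separate pups, so the p-values measure the spread between these libraries. Values are FPKM, fragment numbers scaled for transcript length and library size, a scale on which levels of different genes can be compared.

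Cells take up glucose through GLUT transporters and trap it as glucose 6-phosphate, which either runs down glycolysis to pyruvate or enters the pentose phosphate pathway to give NADPH and ribose. Pyruvate is reduced to lactate and exported, or enters the mitochondria unless pyruvate dehydrogenase kinases switch off the entry enzyme. Osteoblasts are known for high aerobic glycolysis, and many of these genes are known targets of the hypoxia-inducible factor HIF-1.

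The libraries were checked before the genes were compared. *Nell2* was measured at an FPKM of 3.17, 2.59 and 1.88 for control replicates 1 to 3 and of 5.64, 1.61 and 5.74 for cKO replicates 1 to 3, so the targeted gene was not lower under the cKO label. The study reports deletion of NELL2 in calvarial preosteoblasts by qRT-PCR and western blotting. A gene-level FPKM does not single out the floxed part, and why these values were not lower was not tested. All directions below follow the labels. Among 12 osteoblast lineage markers, the summed FPKM was 18640 to 19340 in control libraries and 19260 to 19600 in libraries labelled cKO, and *Col1a1* and *Col1a2* made up most of it. Within that list, 8 of the 12 markers were lower under the cKO label. Of the 12, 5 were lower at an unadjusted p-value under 0.05 and did not overlap, namely *Sp7*, *Alpl*, *Prrx1*, *Ibsp* and *Bglap*. Over all rows tested, 7.76% were lower at that level and 11.8% were lower without overlap. The log2 fold changes of these 5 ran from -1.27 for *Ibsp* to -0.21 for *Prrx1*, and none passed after adjustment over all rows (adjusted p = 0.312 to 0.34 from limma). *Postn* was higher, at 0.46. The 5 endothelial markers summed to at most 3.35 in any library. The 7 macrophage markers summed to 35.1 to 94.9 in controls and 46.9 to 79.1 under the cKO label, and the 7 muscle markers to 31 to 58.4 and 42.4 to 50.1. Other lists did separate the groups. The 5 markers of cycling cells summed to 79.1 to 104.2 in controls and 45.4 to 77.4 under the cKO label, the 3 epithelial markers to 0.37 to 12.5 and 15 to 41.4, and the 5 adipocyte markers to 26.6 to 40.3 and 65.2 to 108.6. The adipocyte sum came almost wholly from *Fabp4* and *Lpl*, with *Adipoq*, *Plin1* and *Cidec* at or below 0.39 in every library. The 2 erythroid markers in the table summed to at most 0.27. The 5 cartilage markers overlapped, at 86.5 to 158.8 and 140.1 to 159.6. The part of any of these cells in the results below was not tested, and in bulk RNA a change in the share of cells cannot be told apart from a change in RNA per cell.

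Glycolytic members, from the transporter to the lower enzymes, were mostly higher in the libraries labelled cKO, and pentose phosphate members were mostly lower. However, none passed the test adjusted over all genes. Of the 32 members outside the pentose phosphate pathway, 25 had a log2 fold change above 0, with a median of 0.25. Of the 6 pentose phosphate members, 5 were below 0, with a median of -0.16. Over all 11590 rows tested, the median was -0.02 and 44.2% lay above 0. After limma's moderated test of log2(FPKM + 1) with Benjamini-Hochberg adjustment, 0 of the 38 members had an adjusted p-value under 0.05, as was the case for 0% of all rows tested. At an unadjusted p-value under 0.05, 15 of the 38 members were higher, against 5.37% of all rows, and 3 were lower, against 7.76%. The libraries of the 2 groups did not overlap for 13 members with higher values under the cKO label, against 6.51% of all rows. For 4 members with lower values they did not overlap either, against 11.8% of all rows. Both counts of lower members, out of 38, were thus close to the shares over all rows. The differences were of modest size, with 3 members at a fold of 1.5 or more.

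**Figure D1:**
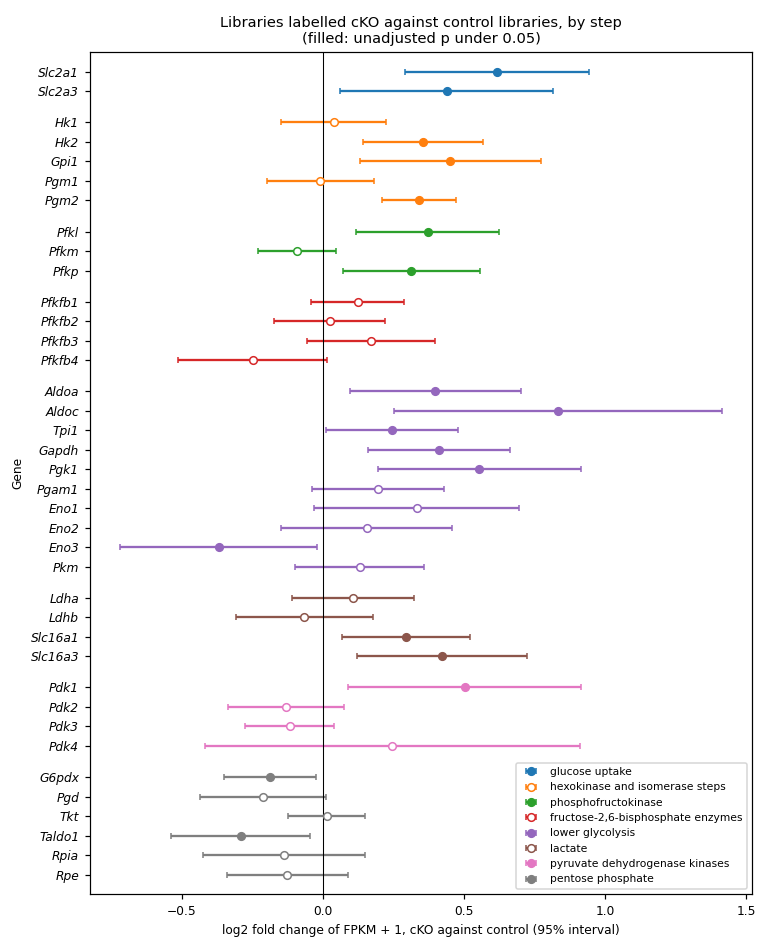
Log2 fold change (FPKM + 1) of each member in libraries labelled cKO against control libraries, with its 95% interval from limma, n = 3 libraries per group, coloured by step. Filled points have an unadjusted p-value under 0.05. Most glycolytic genes lie right of 0, with Aldoc farthest at 0.83, and 5 of the 6 pentose phosphate genes lie left of it.

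The 3 libraries labelled cKO did not carry the pattern equally. Of the 15 members that were higher at an unadjusted p-value under 0.05, 14 had their lowest value under the cKO label in replicate 1, and for *Tpi1* and *Pdk1* that library lay within the control range. The median centred log2 value of these 15 genes was -0.25 to -0.16 in controls. It was -0.02 in cKO replicate 1, and 0.23 and 0.38 in cKO replicates 2 and 3. These genes were chosen for higher values in the same libraries, so their separation from controls follows from that choice. Over all members, the median was -0.006, -0.092 and -0.158 for control replicates 1 to 3. It was -0.039 in cKO replicate 1, inside the control range, and 0.154 and 0.14 in cKO replicates 2 and 3. The members' share of all FPKM was 1.24% to 1.44% in controls, and 1.44%, 1.67% and 1.85% for cKO replicates 1 to 3. Without cKO replicate 1, 7 members passed with an adjusted p-value under 0.05 from limma, namely *Slc2a1*, *Gpi1*, *Aldoa*, *Aldoc*, *Gapdh*, *Pgk1* and *Pdk1*, against 2.9% of all 11522 rows in that fit. Leaving out any other library left 0 members below that threshold, against 0.0174% of all rows without control replicate 3 and 0% without each of the other 4. The summed cycling-cell markers stood apart in the same libraries, since cKO replicate 1 held the highest sum under that label, at 77.4.

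**Figure D2:**
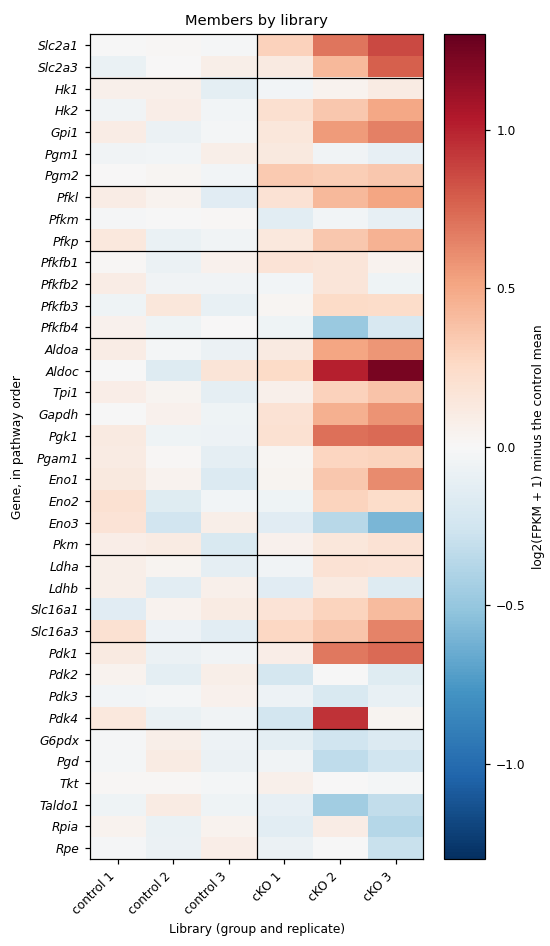
Log2(FPKM + 1) of the 38 members in each library, as the difference from the mean of the control libraries, with red above and blue below that mean and black lines between steps. The red cells are densest in cKO replicates 2 and 3, and Aldoc in cKO replicate 3 is the deepest red.

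Both glucose transporter members, *Slc2a1* and *Slc2a3*, had higher values in every library labelled cKO than in any control. *Slc2a1* encodes GLUT1, the main basal glucose transporter, and is annotated by GENCODE M21 at chr4:119108711-119137983 (GRCm38, plus strand). Its FPKM was 34.2, 34.7 and 33.8 in the control libraries and 42.4, 55.9 and 63 in the libraries labelled cKO. The controls lay within 1 FPKM of each other and below every library labelled cKO. The log2 fold change was 0.62 (standard error 0.14, unadjusted p = 0.0029, adjusted p = 0.312 from limma), or 1.57-fold between the means. *Slc2a3* encodes the high-affinity transporter GLUT3, and its FPKM was 2.77, 3.03 and 3.24 in controls and 3.35, 4.37 and 5.87 under the cKO label. These values did not overlap either, but the level was far below that of *Slc2a1*, which supplied 91.9% of the summed FPKM of the pair in controls and 92.2% under the cKO label.

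The hexokinases, which phosphorylate glucose on entry, differed between isoforms. *Hk1*, the constitutive form, had an FPKM of 42.5, 42.7 and 37.2 in controls and 39.8, 42.1 and 43.8 in libraries labelled cKO, and the ranges overlapped almost wholly. Its log2 fold change was 0.04, with a 95% interval from -0.15 to 0.22. *Hk2*, the inducible form, had values of 9.99, 11 and 10.1 in controls and 12.1, 13.5 and 15.1 under the cKO label, without overlap, and a log2 fold change of 0.35 (standard error 0.09, unadjusted p = 0.00547, adjusted p = 0.312 from limma). Because *Hk1* made up 79.7% of hexokinase FPKM in controls, the sum of both genes was 51.2 ± 3.43 (SD, n = 3) in controls and 55.4 ± 3.48 under the cKO label, a ratio of 1.08. The ratio of *Hk2* to *Hk1* within a library was 0.235, 0.258 and 0.271 in controls and 0.305, 0.321 and 0.344 under the cKO label.

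*Gpi1*, which turns glucose 6-phosphate into fructose 6-phosphate, had an FPKM of 163.5, 144.2 and 150 in controls and 169.2, 223.6 and 240.6 in libraries labelled cKO. The groups did not overlap, although cKO replicate 1 was only slightly above the highest control. Its log2 fold change was 0.45 (standard error 0.14, adjusted p = 0.312 from limma). Among the phosphoglucomutase members, *Pgm2* had tight groups. Its FPKM was 46.7, 47.1 and 45.3 in controls and 59, 58.4 and 59.5 under the cKO label, so that, unlike the other 14 members at that level, cKO replicate 1 was as high as the other 2. The log2 fold change of *Pgm2* was 0.34 (standard error 0.06, unadjusted p = 0.000497, adjusted p = 0.312 from limma), and that of *Pgm1*, at 22.9 to 25 in controls and 21.9 to 25.8 under the cKO label, was -0.01, with an interval from -0.20 to 0.18. Both symbols appear as synonyms of each other in the RefSeq gene table, so which gene of the pair each row holds depends on the annotation release the authors used. No role is therefore assigned to either row here.

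Phosphofructokinase catalyses the committed step, and its isoforms parted. *Pfkl*, the liver-type subunit, had an FPKM of 52.5, 50.6 and 44.2 in controls and 55.9, 65.7 and 70.1 in libraries labelled cKO, and *Pfkp*, the platelet-type subunit, 24.7, 21 and 21.6 against 24.7, 28.8 and 30.9. For *Pfkp*, cKO replicate 1 exceeded the highest control by 24.74 against 24.66. *Pfkm*, the muscle-type subunit, was 23.8, 24 and 24.4 in controls and 21.9, 23.5 and 22.3 under the cKO label, all below the controls, with a log2 fold change of -0.09 (interval -0.23 to 0.05). The within-library ratio of *Pfkm* to *Pfkl* was 0.453, 0.475 and 0.553 in controls and 0.391, 0.358 and 0.319 under the cKO label.

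The 4 PFKFB genes encode bifunctional enzymes that make and break down fructose 2,6-bisphosphate, the activator of phosphofructokinase. They formed the lowest step, with a summed FPKM of 16.3 ± 0.52 (SD, n = 3) in controls and 16.8 ± 0.33 in libraries labelled cKO, and all 4 overlapped between groups. *Pfkfb3*, the isoform with the highest kinase activity, was the most abundant, at 7.31, 8.54 and 7.07 in controls and 7.76, 9.23 and 9.16 under the cKO label. *Pfkfb1* was at 1.24 to 1.47 and 1.44 to 1.67 in the respective groups, and *Pfkfb2* at 2.41 to 2.78 and 2.4 to 2.94. *Pfkfb4* leaned the other way, with 4.98, 4.51 and 4.76 in controls and 4.51, 3.12 and 3.99 under the cKO label, and a log2 fold change of -0.25 (interval -0.51 to 0.02, adjusted p = 0.395 from limma).

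Lower glycolysis, from aldolase to pyruvate kinase, held the most abundant transcripts. Its 10 members made up 0.964% to 1.13% of all FPKM in control libraries, and 1.15%, 1.35% and 1.51% for cKO replicates 1 to 3. *Gapdh*, the dehydrogenase that is often used as a reference gene for qRT-PCR, was the highest member. Its FPKM was 2206, 2293 and 2130 in controls and 2522, 3036 and 3309 under the cKO label, without overlap. The log2 fold change was 0.41 (standard error 0.11, unadjusted p = 0.00614, adjusted p = 0.312 from limma), or 1.34-fold. *Pgk1*, the first ATP-yielding enzyme, is annotated at chrX:106187100-106203699 (plus strand). It had an FPKM of 449.5, 398.9 and 396 in controls and 476.6, 682.9 and 692.8 under the cKO label. Replicates 2 and 3 were far above the controls, and replicate 1 was above them by less. The log2 fold change was 0.55 (standard error 0.15, unadjusted p = 0.00826, adjusted p = 0.312 from limma).

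The aldolases split fructose 1,6-bisphosphate. *Aldoa*, the ubiquitous isoform, was 861.8, 792.1 and 763 in controls and 870.4, 1148 and 1196 in libraries labelled cKO. *Aldoc*, best known from brain, was far scarcer, at 10.3, 9.05 and 11.7 in controls and 12.4, 21.8 and 25.6 under the cKO label. This was the member with the largest log2 fold change, 0.83 (standard error 0.24, unadjusted p = 0.0117, adjusted p = 0.312 from limma), which was 1.93-fold between the means. Its ratio to *Aldoa* overlapped between groups, at 0.0114 to 0.0154 in controls and 0.0143 to 0.0214 under the cKO label.

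Triose phosphate isomerase and the steps after *Pgk1* differed less. *Tpi1*, which encodes that isomerase, had 458.2, 442.9 and 399.8 in controls and 454.5, 531.4 and 560.1 in libraries labelled cKO, with a log2 fold change of 0.25. *Pgam1*, phosphoglycerate mutase, had 385.6, 364.3 and 330.1 against 365.3, 435.7 and 438.5. *Eno1*, the main enolase, had 1180, 1117 and 955.4 against 1110, 1374 and 1648. In all 3 genes cKO replicate 1 lay inside the control range. *Pkm*, which encodes the pyruvate kinases PKM1 and PKM2 that a gene-level value cannot separate, had 873, 880.8 and 716.3 in controls and 853, 905.8 and 936.7 under the cKO label, and the log2 fold change was 0.13 (interval -0.10 to 0.36).

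The other 2 enolases were scarce. *Eno2*, the neuronal isoform, was at 11.2 to 14.6 in controls and 12 to 15.6 in libraries labelled cKO. *Eno3*, the muscle isoform, was the only glycolytic enzyme gene with an unadjusted p-value under 0.05 and lower values, at 18, 13.2 and 16.7 in controls and 14.2, 12.1 and 10.2 under the cKO label. The groups overlapped, and its log2 fold change was -0.37 (standard error 0.15, unadjusted p = 0.0414, adjusted p = 0.366 from limma). Of the 38 members, 5 (*Aldoa*, *Gapdh*, *Pgk1*, *Pgam1* and *Ldha*) have pseudogenes named after them in GENCODE M21, 10 in all, and how reads shared with such copies were counted is not given in the sources used here.

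**Figure D3:**
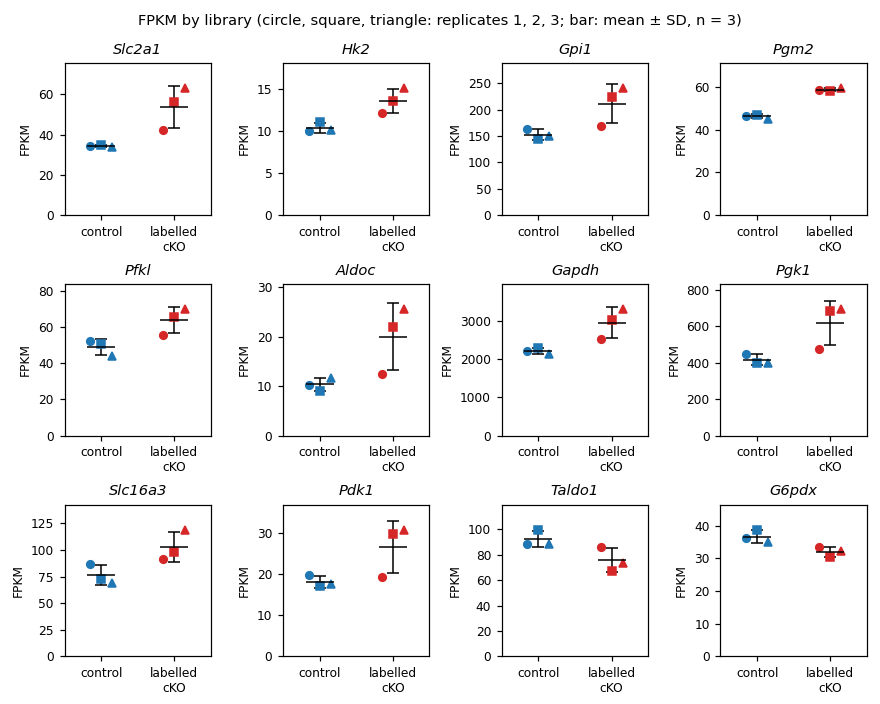
FPKM of 12 members in each library, with circles, squares and triangles for replicates 1, 2 and 3, and a bar and whiskers for the mean ± SD (n = 3). Control libraries sit closely together for Slc2a1, Gapdh and Pgm2, and cKO replicate 1 lies between the controls and the other libraries labelled cKO for Slc2a1, Hk2, Gapdh and Pgk1.

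At the lactate step the enzyme and the exporters differed. *Ldha*, whose subunit favours the reduction of pyruvate, was 795.8, 772.9 and 695.7 in controls and 729.2, 858.4 and 854.4 in libraries labelled cKO. The ranges overlapped, and the log2 fold change was 0.11 (interval -0.11 to 0.32, adjusted p = 0.626 from limma). *Ldhb*, whose subunit favours the reverse reaction, was at 32.8 to 37.9 in controls and 32 to 39.2 under the cKO label. The monocarboxylate transporters that carry lactate across the membrane did separate. *Slc16a3* (MCT4), the exporter of highly glycolytic cells, was 87, 72.7 and 69.1 in controls and 91.4, 97.7 and 118.9 under the cKO label, and the log2 fold change was 0.42 with a standard error of 0.13 (adjusted p = 0.312, limma). *Slc16a1* (MCT1) was 13.6, 15.7 and 16.5 in controls and 17.4, 18.8 and 20.6 under the cKO label, and the log2 fold change was 0.30 with a standard error of 0.10 (adjusted p = 0.312, limma). The ratio of *Slc16a3* to *Slc16a1* was 4.19 to 6.4 in controls and 5.19 to 5.77 under the cKO label.

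The 4 pyruvate dehydrogenase kinases, which restrain the entry of pyruvate into the citric acid cycle, did not move as a group. *Pdk1* was 19.8, 17.1 and 17.5 in controls and 19.3, 29.8 and 30.8 in libraries labelled cKO, so replicates 2 and 3 were above all controls and replicate 1 was not. Its log2 fold change was 0.50 (standard error 0.17, unadjusted p = 0.0236, adjusted p = 0.321 from limma). *Pdk3*, the most abundant kinase, was 31.4, 31.6 and 33.6 in controls and 30.8, 27.9 and 30.1 under the cKO label, all below the controls, with a log2 fold change of -0.12 (interval -0.27 to 0.04). *Pdk2* was at 11.1 to 12.9 and 10.3 to 12.2. *Pdk4*, known as a target of PPAR and FOXO factors, was at 4.26 to 5.12 in controls, and 1 library, cKO replicate 2, stood apart at 9.68 beside 3.73 and 4.74. Without that library the log2 fold change of *Pdk4* was -0.10, against 0.25 with it. The within-library ratio of *Pdk1* to *Pdk2* was 1.56, 1.53 and 1.36 in controls and 1.87, 2.44 and 2.84 under the cKO label.

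The pentose phosphate members leaned the other way. *G6pdx*, the X-linked gene of the first and rate-setting enzyme, was 36, 38.7 and 34.9 in controls and 33.4, 30.4 and 32.2 in libraries labelled cKO, without overlap. The log2 fold change was -0.19 (standard error 0.07, unadjusted p = 0.0311, adjusted p = 0.342 from limma). *Pgd*, the second NADPH-yielding enzyme, was 93.7, 102.5 and 90.4 in controls and 92.6, 75.7 and 79.5 under the cKO label, with replicate 1 inside the control range.

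In the non-oxidative branch, which trades sugars with glycolysis, *Taldo1* (transaldolase) was 88.5, 99.7 and 88.8 in controls and 85.8, 67.1 and 73.7 in libraries labelled cKO. All 3 were below the controls, and the log2 fold change was -0.29 (standard error 0.10, unadjusted p = 0.0265, adjusted p = 0.331 from limma). *Tkt* (transketolase) had nearly the same level in every library, 91, 91.2 and 88.8 in controls and 94.3, 90.9 and 88.6 under the cKO label, with a 95% interval of the log2 fold change from -0.12 to 0.15. *Rpia* and *Rpe*, the ribose 5-phosphate isomerase and the ribulose phosphate epimerase, were at 7.45 to 8.26 and 12.1 to 13.5 in controls and at 5.94 to 8.61 and 10.2 to 12.6 under the cKO label.

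The branch point can be read within a library, where scaling between libraries cancels. The ratio of *Gpi1* to *G6pdx* was 4.54, 3.73 and 4.3 in controls and 5.07, 7.36 and 7.46 in libraries labelled cKO. *Pgk1* over *Taldo1*, genes that lie past the branch point, was 5.08, 4 and 4.46 in controls and 5.55, 10.2 and 9.4 under the cKO label. *Gapdh* over *Pgd* and *Slc2a1* over *Hk1* were formed too, and were also higher in every library labelled cKO. No such ratio used *Tkt*, which hardly differed. All these ratios were formed after the values were seen and are given as descriptions, with no test. The 12 ratios between isoforms of a step were compared with a 2-sided exact permutation test, in which 3 libraries against 3 cannot give a p below 0.1. *Hk2* over *Hk1*, *Pfkm* over *Pfkl*, *Pdk1* over *Pdk2* and *Pgm1* over *Pgm2* reached this smallest p of 0.1 in the exact permutation test (adjusted p = 0.3 over the 12 ratios), and the other 8 did not.

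**Figure D4:**
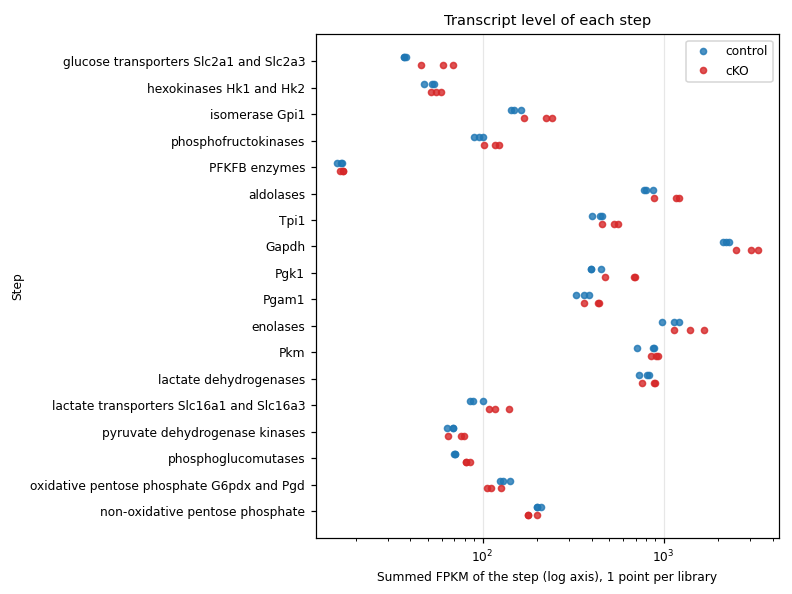
Summed FPKM of the genes of each step, 1 point per library, on a log axis, for control libraries and libraries labelled cKO. The PFKFB enzymes are the lowest step, at 15.7 to 17, and Gapdh is the highest, at 2130 to 3309.

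Summed over isoforms, the steps differed widely in level and in their ratio between groups. The transporter pair of *Slc2a1* and *Slc2a3* had the largest ratio of the means, 1.56. It was followed by *Pgk1* at 1.49, *Gpi1* at 1.38, and the aldolases and *Gapdh* at 1.34 each. Hexokinase was at 1.08, lactate dehydrogenase at 1.07 and the PFKFB enzymes at 1.03. The oxidative pentose phosphate pair was at 0.868 and the non-oxidative genes at 0.913. In controls this transporter pair (37.3 FPKM) and the hexokinases *Hk1* and *Hk2* (51.2 FPKM) were the lowest listed steps to pyruvate apart from the PFKFB regulators. They lay well under lower glycolytic steps such as *Pgam1* (360 FPKM). The pair leaves out other genes of the transporter family. Of these, *Slc2a10* (13.3 FPKM in controls) and *Slc2a8* (8.66 FPKM) were above *Slc2a3* in level, with ratios of 0.955 and 1.13. *Slc2a6*, *Slc2a12* and *Slc2a4* had ratios of 0.998, 0.795 and 1.

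Promoter sequence was read for 37 of the 38 members, with 57 promoters, from RefSeq (GRCm38.p6). The core of the HIF-1 binding site was searched as ACGTG on both strands in the 250 bases before the start site, and in a wider search the variant GCGTG was allowed too. The palindrome CACGTG, an E-box, holds ACGTG on both strands and counts as 1 site. ACGTG was present in 20 of the member promoters (35.1%), against 16.6% of all 32851 promoters, and either form was present in 75.4% against 38.6%. Member promoters were richer in GC bases, with a median GC content of 58.8% against 52.4%, and the shares were not matched for this. Among the members that were higher at an unadjusted p-value under 0.05, 7 of 14 genes with a promoter held ACGTG, and among the other members 9 of 23. Windows of the 160 bases before the start site follow for 3 genes whose values were higher under the cKO label (*Hk2*, *Pgk1*, *Pdk1*) and for a further 3 whose groups overlapped or whose values were lower (*Ldha*, *Pdk2*, *Taldo1*), each 5′ to 3′ on the gene's strand, with matches to either form, or to its reverse complement, in capitals. None of these windows overlaps an exon of GENCODE M21.
Hk2, chr6:82774455-82774614, minus strand: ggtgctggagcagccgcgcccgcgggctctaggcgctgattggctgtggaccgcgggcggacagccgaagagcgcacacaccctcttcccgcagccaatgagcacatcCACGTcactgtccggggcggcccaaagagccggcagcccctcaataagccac
Pgk1, chrX:106186940-106187099, plus strand: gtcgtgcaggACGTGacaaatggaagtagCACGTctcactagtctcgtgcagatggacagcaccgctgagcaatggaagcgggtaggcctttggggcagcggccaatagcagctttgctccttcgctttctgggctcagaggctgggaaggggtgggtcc
Pdk1, chr2:71873064-71873223, plus strand: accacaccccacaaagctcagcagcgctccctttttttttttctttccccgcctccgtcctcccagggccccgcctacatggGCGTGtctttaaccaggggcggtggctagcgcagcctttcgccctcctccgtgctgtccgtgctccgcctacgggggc
Ldha, chr7:46845644-46845803, plus strand: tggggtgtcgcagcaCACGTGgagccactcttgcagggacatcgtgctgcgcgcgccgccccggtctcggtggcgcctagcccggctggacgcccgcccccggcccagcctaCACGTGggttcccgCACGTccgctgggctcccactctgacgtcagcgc
Pdk2, chr11:95041372-95041531, minus strand: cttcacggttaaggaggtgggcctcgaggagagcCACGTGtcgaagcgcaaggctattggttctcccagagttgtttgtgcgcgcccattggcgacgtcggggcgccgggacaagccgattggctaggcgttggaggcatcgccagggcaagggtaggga
Taldo1, chr7:141392000-141392159, plus strand: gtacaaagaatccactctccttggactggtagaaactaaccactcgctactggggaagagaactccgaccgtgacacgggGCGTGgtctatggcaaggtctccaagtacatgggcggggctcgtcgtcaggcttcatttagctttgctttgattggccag
*Pgk1* held 2 sites and *Hk2* held 1. *Ldha* held 3, 2 of them CACGTG, and *Pdk2* held 1 CACGTG, although neither gene had an unadjusted p-value under 0.05. *Pdk1* and *Taldo1*, which differed in opposite directions, each held 1 site of the form GCGTG. Such a match is a run of letters and was not shown to be bound in these cells.

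Of 74 further genes around the pathway, 69 were in the table and 55 passed the filter, and their median log2 fold change was -0.01. None had an adjusted p-value under 0.05, and 5 were higher and 3 lower at an unadjusted p-value under 0.05, again against 5.37% and 7.76% of all rows. In both directions together, 8 of the 55 were at that level, against 13.1% of all rows. The list as a whole was thus near the share over all rows, and its genes are given as single descriptions. Glycogen genes held 3 of the 5 that were higher. *Pygl*, a glycogen phosphorylase, was 14.7, 10.8 and 12.2 in controls and 17.6, 23.6 and 24 in libraries labelled cKO, and the log2 fold change was 0.74 with a standard error of 0.15 (adjusted p = 0.312, limma). The more abundant phosphorylase gene *Pygb* lay the other way, at 58.5, 54.3 and 64.4 in controls and 54.1, 50.3 and 53 under the cKO label, without overlap but with an unadjusted p of 0.0769 from limma. *Gbe1*, the branching enzyme, and *Gys1*, glycogen synthase, had log2 fold changes of 0.44 and 0.35. *Bsg* (basigin), the chaperone that brings MCT1 and MCT4 to the membrane, was 604.8, 602.2 and 603 in controls and 640.5, 932.1 and 896.2 under the cKO label. *Pck2*, the mitochondrial enzyme that makes phosphoenolpyruvate, differed by 0.70 on the log2 scale, with a standard error of 0.17 (adjusted p = 0.312, limma).

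*Txnip* encodes an arrestin that removes GLUT1 from the membrane, and its own transcription is known to follow glucose-derived metabolites. Its FPKM was 7.98, 7.9 and 8.18 in controls and 5.74, 3.46 and 2.52 in libraries labelled cKO, the reverse of *Slc2a1*, and the groups did not overlap. The log2 fold change was -0.93 (standard error 0.22, unadjusted p = 0.00362, adjusted p = 0.312 from limma). *Prps1*, which makes the ribose precursor of nucleotides, was also among the lower genes, with a log2 fold change of -0.18. It was the only 1 below 0 of the 5 further pentose phosphate and ribose genes tested. The other 4 lay above 0, with *H6pd* at 0.01, *Pgls* at 0.04, *Prps2* at 0.09 and *Shpk* at 0.15. The pyruvate carriers and pyruvate dehydrogenase subunits had unadjusted p-values above 0.05, for example *Mpc1* at -0.04, *Pdha1* at 0.01 and *Pdhb* at -0.13.

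HIF-1 targets outside glycolysis were mostly higher as well. Of 12 such genes, 10 were higher at an unadjusted p-value under 0.05 and 0 passed the adjusted test, with a median log2 fold change of 0.61. Over all rows tested, 5.37% were higher at that level and the median was -0.02. *Adm*, which encodes adrenomedullin, lay the other way, with a log2 fold change of -0.21. Its FPKM was 23.18, 17.1 and 21.38 in controls and 19.15, 18.37 and 15.28 under the cKO label, with overlap. *Car9*, a carbonic anhydrase, was 9.9, 12.8 and 12.7 in controls and 15.1, 58.9 and 58.2 for cKO replicates 1 to 3, with replicate 1 again the lowest under that label. *Hif1a* itself was 93.5, 105.2 and 92.5 in controls and 130.6, 104.9 and 107.2 under the cKO label, where replicate 1 was the highest. The log2 fold change of *Hif1a* was 0.23 (adjusted p = 0.4 from limma). The part of HIF-1 in any of these differences was not tested.

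Y-linked transcripts were present in control replicate 3 and in cKO replicates 1 and 3 and near 0 in the other 3 libraries, so the sexes were not balanced. *Pgk1*, *G6pdx*, *Pdk3* and *Pfkfb1* lie on the X chromosome. In a fit that also held the presence of Y-linked expression, the log2 fold change was 0.61 for *Pgk1* and -0.19 for *G6pdx*, and 15 members were higher and 2 lower at an unadjusted p-value under 0.05, against 4.84% and 5.53% of all rows in that fit. *G6pdx*, *Eno3* and *Slc2a3* no longer had an unadjusted p-value under 0.05 there (0.0607, 0.0609 and 0.0604 from limma), and the 2 lower members were *Taldo1* and *Pfkfb4*.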

How the data were processed

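PolyA RNA of 6 libraries was sequenced by the authors as paired-end reads, which per the study's methods were mapped to the mouse transcriptome. The submitters' processing notes name HISAT2 and GRCm38. The authors deposited 1 FPKM value for each library and gene symbol, to 2 decimals. The methods also state a normalization of reads, and whether it entered these values, the program that computed FPKM, its annotation and its use of strand are not given in the sources used here. Depth is unknown from FPKM, so no counting interval or floor was computed. FPKM summed to 573307 to 606428 per library, and libraries correlated at 0.982 to 0.994 across tested genes.

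Rows were kept where 3 or more libraries reached an FPKM of 1 (11590, all 38 members included), and were compared as log2(FPKM + 1) in limma 3.58.1 (R 4.3.3; lmFit, eBayes, Benjamini-Hochberg adjustment over all tested rows). The log2(FPKM + 1) scale understates changes of low genes. Ratios were tested in scipy 1.17.1 by exact permutation. All members were named, with the value in every library for those at an unadjusted p-value under 0.05, those without overlap and the most abundant of a step. The members and lists were chosen with earlier results of these data known. Alternatives were another pseudocount (0.1), other filters, a variance trend, other scalings, the replicate number as a block, a Y-linked covariate and each library left out. Start and end positions are from GENCODE M21, which may differ from the authors' annotation. The values of 1 further pathway gene are not reported here.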

Additional observations from a re-analysis of the deposited data

How the results depend on the processing

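Among the members, 0 fell below an adjusted p-value of 0.05 in each of the 8 alternatives that kept all 6 libraries, and 0 to 7 with 1 library left out, where 7 came without cKO replicate 1. Over all genes the count was 0 in those 8, and 0 to 334 with 1 library left out, with 334 without cKO replicate 1 and 2 without control replicate 3. Members higher at an unadjusted p-value under 0.05 numbered 14 or 15 in the 8 alternatives and 9 to 18 with 1 left out, with 9 without cKO replicate 3 and 10 without cKO replicate 2. Members lower at that level numbered 2 to 4, and 0 to 5 with 1 left out. This count was 1 without control replicate 1, control replicate 2 or cKO replicate 2, 0 without cKO replicate 3 and 5 without cKO replicate 1. The further pathway genes numbered 7 to 10, and 5 to 10 with 1 left out, with 5 without control replicate 1, cKO replicate 2 or cKO replicate 3. The median log2 fold change of the members was 0.163, and 0.116 to 0.253 with 1 left out. These fits hold fewer libraries, and the cause of the shifts was not tested.

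Of the 38 members, 33 kept their sign in all 14 alternatives and 5 did not. *Tkt* was at -6.22e-05 with values rescaled to 1 common sum per library, and ran from -0.00941 to 0.035 with 1 left out. *Pgm1* was at 0.0144 with quantile normalization, and ran from -0.0745 to 0.0386 with 1 left out. *Hk1* ran from -0.0258 to 0.0742, *Pfkfb2* from -0.0432 to 0.0737 and *Pdk4* from -0.0991 to 0.488 with 1 left out. The labels link libraries of the 2 groups by replicate number only. For libraries with the same number, the correlations of their differences from the group means were 0.03, -0.17 and 0.21. For unlike numbers they ran from -0.27 to 0.28, so these values cannot show whether the libraries were paired. With the replicate block, 0 members passed the adjusted test, and 14 were higher and 2 lower at an unadjusted p-value under 0.05. None of the 12 isoform ratios could pass the exact permutation test in any setting. Rounding to 2 decimals and unknown depth limit what can be said of low members such as *Pfkfb1* and *Slc2a3*.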
